A study of Mus musculus with 14 samples.

Results

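Axon guidance genes encode the cues that steer growing axons and the receptors that read them. The report covers 59 of them, chosen by gene symbol from a fixed list and all present among the 53465 genes of the count table. They are 30 ligands (5 ephrin-A, 3 ephrin-B, 7 class 3 semaphorin, 10 membrane-bound semaphorin, 3 Slit and 2 netrin genes) and 29 receptors (7 EphA, 5 EphB, 8 plexin, 2 neuropilin, 4 Robo and 3 netrin receptor genes). The rule uses gene names and no measured value.

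PolyA RNA-seq was run on tissue of wild type C57BL/6 mouse embryos, and no group carries another allele or a treatment. The AGM (aorta-gonad-mesonephros) region was sampled at E10.5 and E11.5, while the libraries titled AGM at E9.5 hold the embryo's caudal part with what the labels call PsP. Each AGM day has 2 libraries, 1 from each of 2 sequencing rounds. Dorsal skin is present in a series titled ES and another titled E, each with 1 library from E9.5, 1 from E10.5, 1 from E12.5 and 1 from E14.5. The labels do not explain these 2 titles. Whether any libraries share embryos is not stated, so a p-value here speaks of the spread among these libraries, which may be technical. For the second AGM round the table's 3 column names give a number but no age. Each was assigned the age of the first-round library with that number, which is an assumption.

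Ephrins are bound to the cell surface and signal to Eph receptor tyrosine kinases on the neighbouring cell, and the ligand-bearing cell can be signalled to in turn. Semaphorins act through plexins, and most class 3 semaphorins need a neuropilin as co-receptor. Slits bind Robo receptors and repel axons, whereas netrins attract through DCC and repel through UNC5 receptors. The same pairs are used outside the nervous system. Ephrin-B2 and EphB4 mark arteries and veins, semaphorin 3E acts on plexin D1 in vessels, and Eph and semaphorin signals guide neural crest cells.

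Total counts ran between 6770338 and 29534551 a library, and no pair of libraries held identical values. In the AGM and skin E libraries all 59 members had a count, and in skin ES 57 or 58 did. The rounds of an AGM day correlated at r = 0.993 to 0.995 across genes, and skin ES and skin E of the same day at 0.625 to 0.716. Those values are across genes, which are not independent replicates. Skin ES stood apart from the other libraries in its markers: the 7 endothelial genes summed to 20.1 to 40 CPM (counts scaled to the library total) there against 329 to 636 CPM in skin E. The 7 epidermal markers summed to 33.1, 31, 36.3 and 15.1 CPM in skin ES and to 121, 34.9, 224 and 3196 CPM in skin E. Of 6 tested, 3 were lower and 0 higher. Krt14, of basal keratinocytes, lay at 0 to 0.142 CPM in skin ES and 0.484 to 459 CPM in skin E. Krt8 was higher in skin ES at E10.5 and E12.5 (24.9 and 25.7 against 5.15 and 2.58 CPM), as was Krt15 at E9.5 (0.68 against 0.201 CPM). Because of the gap between the titles, ES and E libraries were averaged only in 1 alternative fit, of all 14 libraries. In bulk tissue, fewer cells of a type and less RNA per cell cannot be told apart.

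The promoters of 4 members are printed here, since Sema7a and Unc5b stood higher in skin ES and Epha3 and Sema3e moved in opposite directions in the AGM. Each run is the 250 bases before the RefSeq start site on the gene's own strand (GRCm38.p6), free of annotated exons. The Sema7a window lies at chr9:57939862-57940111 on the plus strand, that of Unc5b at chr10:60831582-60831831 on the minus strand, that of Epha3 at chr16:63864176-63864425 on the minus strand and that of Sema3e at chr5:14025026-14025275 on the plus strand. Capitals mark GC boxes, GGGCGG on either strand.
Sema7a: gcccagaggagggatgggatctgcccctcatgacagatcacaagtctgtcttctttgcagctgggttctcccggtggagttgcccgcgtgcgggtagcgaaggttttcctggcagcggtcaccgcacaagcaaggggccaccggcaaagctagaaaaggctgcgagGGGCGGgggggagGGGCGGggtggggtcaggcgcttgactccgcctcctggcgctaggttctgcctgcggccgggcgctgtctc
Unc5b: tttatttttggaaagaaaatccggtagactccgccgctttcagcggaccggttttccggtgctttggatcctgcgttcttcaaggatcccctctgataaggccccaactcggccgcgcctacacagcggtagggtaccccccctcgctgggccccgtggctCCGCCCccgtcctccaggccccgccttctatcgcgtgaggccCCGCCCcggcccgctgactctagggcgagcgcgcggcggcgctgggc
Epha3: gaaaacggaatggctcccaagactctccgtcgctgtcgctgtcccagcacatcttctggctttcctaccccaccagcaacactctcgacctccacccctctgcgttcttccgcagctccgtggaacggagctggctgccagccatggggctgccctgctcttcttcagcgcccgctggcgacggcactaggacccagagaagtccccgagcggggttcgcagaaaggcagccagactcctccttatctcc
Sema3e: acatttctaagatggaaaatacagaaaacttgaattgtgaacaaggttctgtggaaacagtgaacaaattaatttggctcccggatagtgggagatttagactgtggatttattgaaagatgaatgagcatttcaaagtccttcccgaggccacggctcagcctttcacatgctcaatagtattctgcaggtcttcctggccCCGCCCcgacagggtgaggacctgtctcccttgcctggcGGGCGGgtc

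Of the 59 members, 50 had an entry in the promoter table, with 65 start sites. A GC box stood in 47 of these 65 windows and in 32.7% of all 32851 windows of the same length. The TATAAA motif stood in 2 of the 65 and in 12.4% of all, the AP-1 motif TGANTCA in 3 and 6.75%, and the bHLH E-box CAGNTG in 22 and 44.8%, each searched on both strands. Within the printed windows Sema7a, Unc5b and Sema3e each hold 2 GC boxes and Epha3 holds 0. The Sema7a window has 17 CpG dinucleotides at a GC content of 66.4%, and Unc5b has 27 at 66.8%. The Epha3 window has 16 at 62.8%, and that of Sema3e has 7 at 48% GC. A match is a description of the letters and was not tested for binding.

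**Figure D1:**
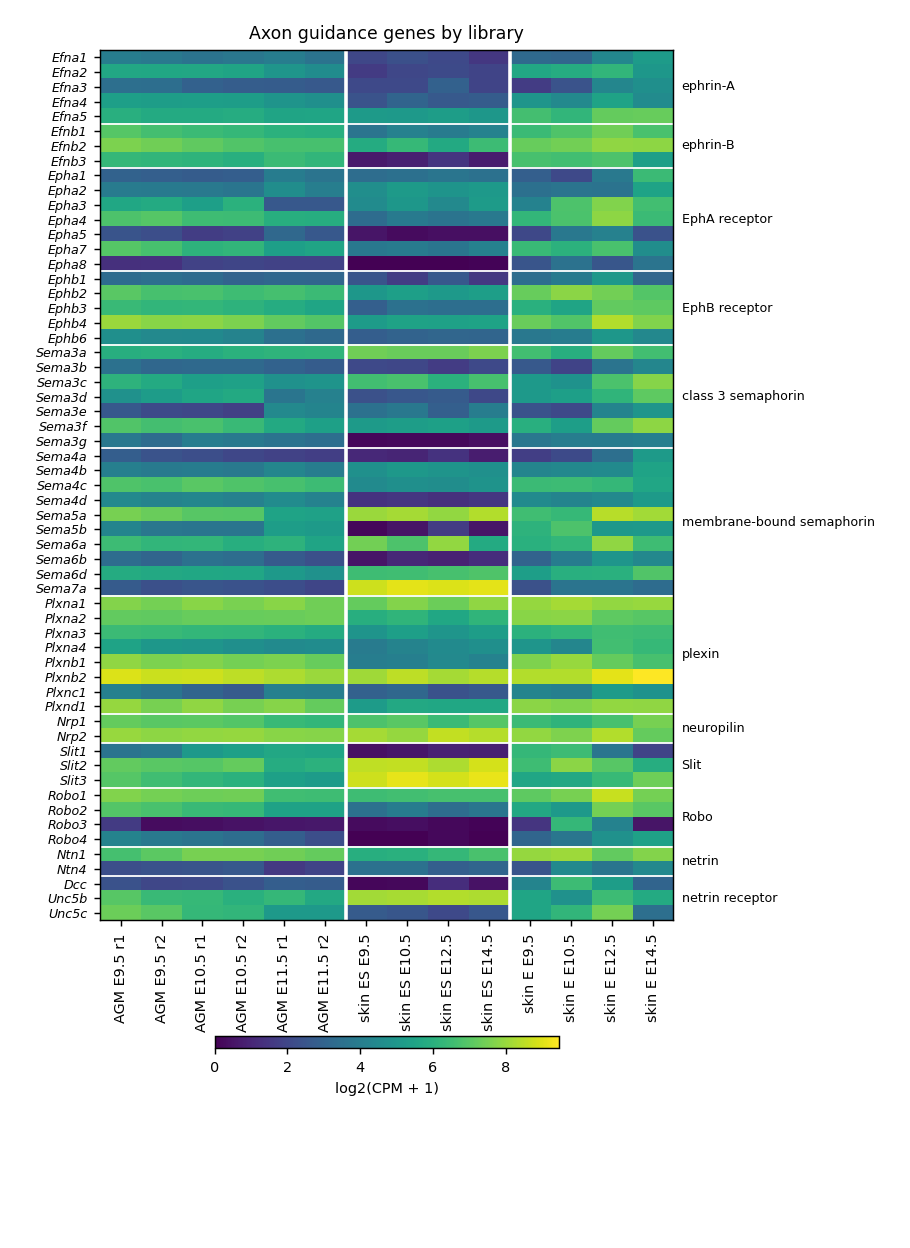
Level of each of the 59 members (rows, by family) in each of the 14 libraries (columns), as log2(CPM + 1). The white lines part the 6 AGM (rounds r1 and r2), 4 skin ES and 4 skin E libraries. In the 4 skin ES columns Sema7a, Slit2, Slit3 and Unc5b are bright and Robo3, Robo4, Epha8, Sema3g and Dcc are near 0.

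The skin libraries titled ES held most guidance genes at other levels than those titled E, Sema7a, Slit3 and Unc5b among the higher and the Eph receptor and ephrin genes mostly among the lower. Over the 4 shared days, with the day as a block, 42 of the 58 members tested differed in edgeR's quasi-likelihood test with Benjamini-Hochberg adjustment (adjusted p under 0.05), 8 higher and 34 lower in skin ES, against a background of 58.8% of all 16588 genes tested (29.5% higher and 29.3% lower). Of the 58, 8 genes (Robo4, Epha8, Epha5, Sema3g, Sema5b, Sema6b, Slit1 and Dcc) reached the filter's limit of 0.565 CPM in all 4 skin E libraries but not in all 4 skin ES libraries. They were tested because they are high in skin E, so their folds in the fit are not given. They were set apart after the data were seen. Of the 50 members that reached the limit in every library of both titles, 8 were higher and 26 lower, against 53.2% of 12192 such genes (23.7% higher and 29.5% lower). Their median log2 change was -1.1, beside -0.11 over those genes. All 5 EphB receptor genes, all 3 ephrin-B genes, 4 of 5 ephrin-A genes, 4 of 7 EphA receptor genes (Epha5 and Epha8 of the 8 above among them) and 5 of 8 plexin genes were lower. The 8 that were higher are Sema7a, Slit3, Unc5b, Slit2, Epha2, Sema3a, Sema6d and Nrp2. The title and the sequencing project differ together, so they cannot be told apart.

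Sema7a, which encodes a membrane-anchored semaphorin that binds integrins and plexin C1, lay at 422, 545, 496 and 536 CPM in skin ES in order of day, against 4.06, 11.4, 11.4 and 9.13 CPM in skin E. Every ES library stood far above every E library. The log2 change was 6.22 (SE 0.31, adjusted p = 0.000216). Per kilobase of exon it was the highest of the members in skin ES, at 128 to 165 CPM per kb, beside 1.23 to 3.45 CPM per kb in skin E. Its receptor gene Plxnc1 was lower instead, at 6.69, 8.05, 4.28 and 5.18 CPM in skin ES against 18.5, 15.9, 35.3 and 27.2 CPM in skin E (log2 change -1.63, SE 0.4, adjusted p = 0.0144).

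Of the Slit genes, whose products repel axons through Robo receptors, Slit3 and Slit2 were higher and Slit1 lower in skin ES. Slit3 lay at 423, 550, 457 and 571 CPM in skin ES, against 47, 51.4, 82.7 and 164 CPM in skin E (log2 change 3.05, SE 0.33, adjusted p = 0.000924). Slit2 lay at 371, 384, 316 and 466 CPM in skin ES, against 91.3, 226, 128 and 57.9 CPM in skin E (log2 change 2.1, SE 0.39, adjusted p = 0.00515). Neither gene's libraries overlapped between the titles. Slit1 lay at 0.34, 0.498, 0.886 and 0.777 CPM in skin ES, against 77.2, 88.4, 12.1 and 2.82 CPM in skin E, so that the E libraries alone spread widely. Over the 4 libraries it had 28 counts in skin ES against 3901 in skin E, a ratio of CPM of 0.0142 with an exact 95% counting interval of 0.0094 to 0.0205. Of the Robo genes, Robo1 lay at 91.7 to 103 CPM in skin ES against 137 to 403 CPM in skin E (log2 change -0.73, SE 0.25, adjusted p = 0.0445).

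The netrin receptor Unc5b, a repulsive receptor that vessels also carry, lay at 280, 297, 328 and 311 CPM in skin ES, against 46.2, 26.5, 88.6 and 54 CPM in skin E (log2 change 2.95, SE 0.28, adjusted p = 0.000645). The ES libraries lay close together and all above the E libraries. Endothelial marker genes were at their lowest in the same ES libraries, and their part in the result was not tested. Levels of the other netrin receptor genes were lower in skin ES. Dcc lay at 0.113, 0.142, 1.33 and 0.389 CPM in skin ES against 18.4, 89.8, 37.1 and 7.21 CPM in skin E, with 18 counts against 3457 (ratio 0.0103, interval 0.00608 to 0.0163). Unc5c lay at 3.25 to 5.56 CPM in skin ES and at 9.85 to 179 CPM in skin E (log2 change -3.11, SE 0.77, adjusted p = 0.0151). The netrin gene Ntn1 was lower as well, at 59.4 to 106 CPM in skin ES against 145 to 267 CPM in skin E (log2 change -1.18, SE 0.28, adjusted p = 0.0136).

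Among the repulsive class 3 semaphorins, which are secreted, Sema3a lay at 171, 157, 158 and 191 CPM in skin ES, against 96.8, 60, 148 and 94.9 CPM in skin E (log2 change 1.16, SE 0.23, adjusted p = 0.00637). The lowest ES library stood just above the highest E library. Epha2, an ephrin-A receptor gene known from epithelia, lay at 24.5, 35, 28.7 and 33.9 CPM in skin ES and at 10.2, 11.4, 11.1 and 44.3 CPM in skin E, so the E14.5 library of skin E was the highest of all. Its call (log2 change 1.32, SE 0.4, adjusted p = 0.0301) was lost without the day block (adjusted p = 0.126). It was also lost when the E9.5, E10.5 or E12.5 library of either title was left out, at adjusted p = 0.094 to 0.108.

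Several members were at or near 0 counts in skin ES. Robo4, a Robo gene of the vessel lining, had 1 count over the 4 ES libraries against 1986 over the 4 E libraries, a ratio of CPM of 0.000994 (interval 2.52e-05 to 0.00554). Epha8 had 1 count against 713, a ratio of 0.00277 (7e-05 to 0.0155). Robo3, a receptor of commissural axons, had 8 counts in skin ES against 2238 in skin E (0.00706, interval 0.00304 to 0.0139) and did not pass the low-count filter, so it was not tested. Such intervals cover counting error and not the spread between libraries. Epha5 had 14 counts in skin ES against 852 (0.0324, interval 0.0177 to 0.0547), and Sema6b 46 against 1648 (0.0551, interval 0.0402 to 0.0738).

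Sema3g, a class 3 semaphorin gene of vessels, lay at 0.113, 0.142, 0.148 and 0.324 CPM in skin ES, against 12.6, 15.1, 14.6 and 15.9 CPM in skin E, which is 9 counts against 1299 (ratio 0.0137, interval 0.00624 to 0.026). Efnb3, whose ephrin-B3 forms a barrier at the neural midline, lay at 0.567, 0.783, 1.77 and 0.648 CPM in skin ES against 104, 96.7, 113 and 39.4 CPM in skin E (log2 change -6.21, SE 0.36, adjusted p = 0.000258). For either gene all ES libraries lay far below all E libraries. Sema5b, a transmembrane semaphorin, lay at 0.113, 0.427, 2.22 and 0.453 CPM in skin ES against 68, 111, 31.7 and 34 CPM in skin E, or 29 counts against 5386 (ratio 0.0106, interval 0.00711 to 0.0153). All 7 endothelial, 4 of 7 neuronal and 5 of 6 neural crest and glial markers were lower in skin ES in the same fit, with Hbb-y, Hba-x, Hbb-bt, Myod1, Myog and Pax2 at 0 counts in every ES library. The 7 neuronal markers summed to 80.9 to 142 CPM in skin ES and to 116 to 2261 CPM in skin E, and the 7 dermal mesenchyme markers to 3422 to 4794 CPM in skin ES and 463 to 12580 CPM in skin E (2 higher and 1 lower in the fit). The 6 macrophage markers summed to 126 to 323 CPM in skin ES and 6.22 to 189 CPM in skin E, with 1 higher in the fit and a median log2 change of 2.9. The proliferation gene Mki67 lay at 3.55 to 19 CPM in skin ES against 494 to 870 CPM in skin E, and Spp1, which encodes osteopontin, at 22230 to 34970 CPM against 1.19 to 6.45 CPM. Their part in the members' differences was not tested. Without the E9.5, or without the E10.5, library of skin E, 5 members were higher and 33 lower. Of all genes, 3985 were higher and 3732 lower of 16741 without E9.5, and 3972 and 3681 of 16735 without E10.5.

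**Figure D2:**
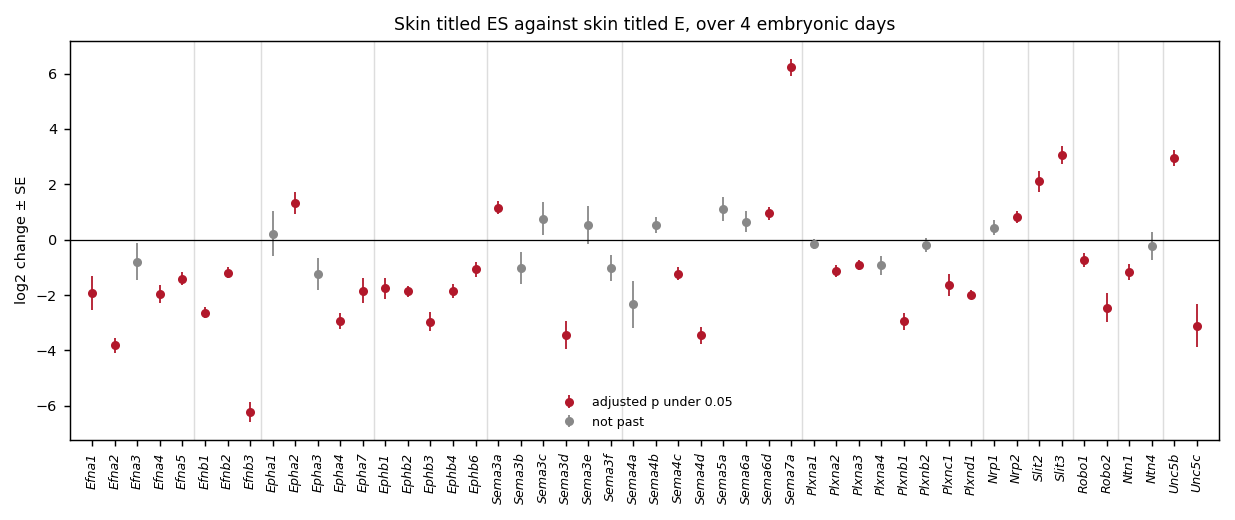
Log2 change of each member, skin ES over skin E, with its standard error, over 4 days; red points passed an adjusted p of 0.05 and grey points did not. Robo3 was not tested, and the 8 members under the filter's limit in skin ES are left out. Sema7a stands alone above 6, and Efnb3 alone near -6.

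In skin titled E, guidance genes differed between successive days in opposite directions, most being higher at E12.5 and most lower at E14.5 among those past the fold limit. Each day is 1 library, with no replicate check. A member is counted here when its ratio of CPM, with 0.5 CPM added to each value, is past 2-fold, and ratios carry exact 95% counting intervals. At E10.5 against E9.5, 8 of 59 members were past 2-fold, all higher, against 8.51% of the 14964 genes counted (6.19% higher and 2.32% lower). At E12.5 against E10.5, 31 were, 26 higher and 5 lower, against 21.8% of genes (16.3% higher and 5.49% lower). At E14.5 against E12.5, 19 were, 4 higher and 15 lower, against 21.3% of genes (9.75% higher and 11.6% lower). The median log2 ratios of the members over these intervals were 0.19, 0.72 and -0.25, beside 0.01, 0.04 and -0.12 over all genes counted. With TMM-scaled library sizes the last interval has 8 members higher and 15 lower. The edgeR fit of 10 libraries assumes that a lone skin library varies like the AGM pairs. In it the members' median log2 changes, in order of interval, were 0.19, 0.675 and -0.119. Over all 19945 genes of that fit they were -0.000702, 0 and 0.0194. In the last interval that fit called members both higher and lower.

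Robo3, which lets commissural axons cross the midline, lay at 1.76 CPM at E9.5, 78.4 CPM at E10.5, 17.2 CPM at E12.5 and 0.448 CPM at E14.5. The E10.5 level was 44.6 times that at E9.5 (interval 32 to 64.3), and the E14.5 level was 0.0261 times that at E12.5 (interval 0.0124 to 0.0485). The netrin receptor gene Dcc, which mediates attraction, followed the same order of days at 18.4, 89.8, 37.1 and 7.21 CPM. Its ratio was 4.89 at E10.5 against E9.5 (interval 4.37 to 5.48), 0.414 at E12.5 against E10.5 and 0.194 at E14.5 against E12.5. Both genes peaked in the E10.5 library and were lowest in the E14.5 library.

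The ligand genes Slit1 and Sema5b were high on the first 2 days. Slit1 lay at 77.2, 88.4, 12.1 and 2.82 CPM in order of day, a ratio of 0.137 at E12.5 against E10.5 (interval 0.121 to 0.155). Sema5b lay at 68, 111, 31.7 and 34 CPM, a ratio of 0.286 for the same interval (0.264 to 0.311). Slit2 lay at 91.3, 226, 128 and 57.9 CPM. Slit3 differed, with its highest value, 164 CPM, at E14.5. Slit1 and Slit2 were thus highest in the E10.5 library and Slit3 in the E14.5 library.

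EphA receptor genes, whose products bind ephrin-A ligands, had 3, 3 and 7 of 7 members past 2-fold in the 3 intervals. Epha3 lay at 17.2, 111, 203 and 94.9 CPM over the 4 days, a ratio of 6.44 at E10.5 against E9.5 (interval 5.75 to 7.24). Epha5 lay at 3.16, 12.9, 16.8 and 4.25 CPM, and Epha7 at 84.3, 67.1, 105 and 23.8 CPM. These 3 genes were each highest at E12.5. Epha1 and Epha2, the EphA genes known from epithelia, were instead highest at E14.5. Epha1 lay at 6.22, 3.26, 13 and 86.1 CPM, a ratio of 6.6 at E14.5 against E12.5 (interval 5.86 to 7.46), and Epha2 at 10.2, 11.4, 11.1 and 44.3 CPM, a ratio of 3.98 (interval 3.47 to 4.57). Sema4a, a membrane-bound semaphorin gene, shared that order at 2.36, 3.35, 9.96 and 34.8 CPM.

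At E12.5 against E10.5 the higher members included 5 of 7 class 3 semaphorin genes, 4 of 5 EphB receptor genes, 4 of 5 ephrin-A genes and 3 of 4 Robo genes. Robo2 lay at 51.7, 33.7, 179 and 132 CPM over the 4 days, a ratio of 5.31 at E12.5 against E10.5 (interval 4.91 to 5.74). Sema3e, the ligand of plexin D1, lay at 4.17, 3.21, 18.3 and 29.8 CPM, a ratio of 5.69 (interval 4.43 to 7.4). Both were above their first 2 days on each of the last 2. Plxna4, a plexin gene of sensory and sympathetic axons, lay at 30, 19.6, 95.2 and 80 CPM, and Sema5a at 93.3, 79.9, 347 and 284 CPM, with ratios of 4.87 (4.4 to 5.4) and 4.34 (4.13 to 4.57). Sema3c, a class 3 semaphorin gene, lay at 33.3, 27.3, 110 and 211 CPM. Efna3 lay at 2.21, 4.31, 19.2 and 25.2 CPM, but 14.1% of its exon bases lie under an opposite-strand gene and the strand setting of the counting is not stated.

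Unc5c, the netrin receptor gene, was past 2-fold higher at E12.5 and then past 2-fold lower at E14.5. It lay at 46.8, 74.2, 179 and 9.85 CPM, a ratio of 2.42 at E12.5 against E10.5 (interval 2.28 to 2.56) and of 0.055 at E14.5 against E12.5 (interval 0.0478 to 0.063). Ephb1 was also highest at E12.5, with 9.48, 13.6, 31.9 and 7.79 CPM. Ntn4, a netrin of basement membranes, lay at 4.52, 21.7, 11.8 and 20.4 CPM, with no single peak. Epha8 alternated, at 4.67, 11, 4.79 and 11.46 CPM.

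Markers of other cell types moved across the same libraries. The 7 neuronal markers summed to 349, 2261, 1264 and 116 CPM over the 4 days, highest on the day when Robo3 and Dcc were, and the 6 neural tube progenitor markers to 985, 1119, 150 and 36 CPM, in the order of Slit1. The 7 epidermal markers summed to 121, 34.9, 224 and 3196 CPM, the order of Epha1, and the 7 dermal mesenchyme markers to 683, 463, 4193 and 12580 CPM. From E9.5 to E10.5 the epidermal sum dropped mostly through Krt18 (49.3 to 9.02 CPM), Krt8 (29.7 to 5.15 CPM) and Epcam (27.4 to 7.13 CPM). Krt5 lay at 3.36 and 3.52 CPM on those days and at 1722 CPM at E14.5. Macrophage markers summed to 6.22, 17.7, 107 and 189 CPM and muscle markers to 120, 279, 1440 and 2725 CPM. The part of these cells in the members' changes was not tested.

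**Figure D3:**
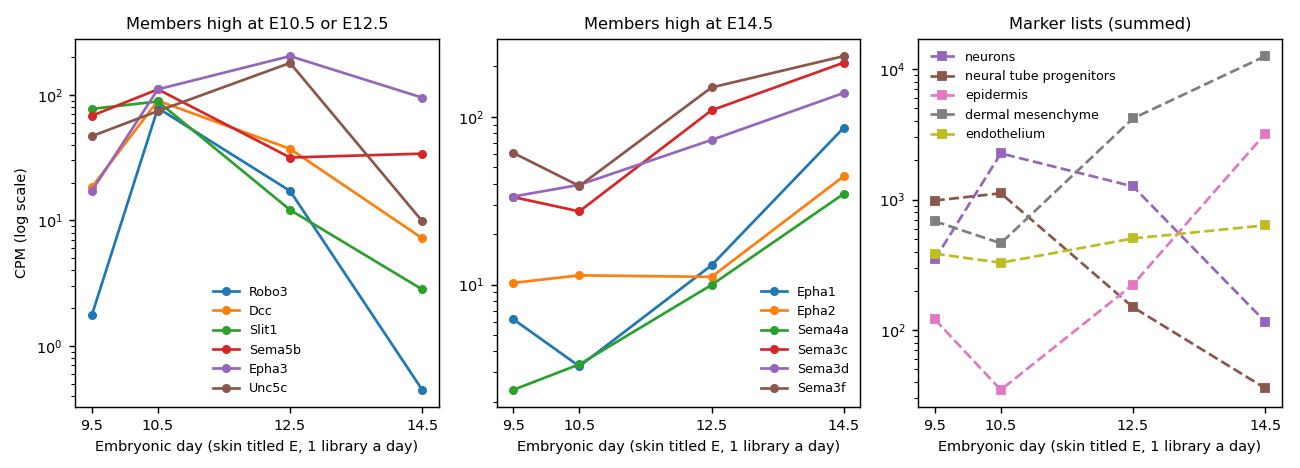
CPM on a log scale by embryonic day in skin titled E, with 1 library a day: members highest at E10.5 or E12.5 (left), members highest at E14.5 (middle) and summed marker lists (right, dashed). Robo3 and the neuronal markers peak together at E10.5. Epha1 and the summed epidermal markers are lowest at E10.5, a drop mostly in Krt8, Krt18 and Epcam, and highest at E14.5.

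Skin titled ES showed few of these changes. At E10.5 against E9.5, 0 of the 49 members counted were past 2-fold, against 4.49% of 14620 genes (0.766% higher and 3.72% lower). At E12.5 against E10.5, 1 was higher, against 12.3% of genes (8.49% higher and 3.82% lower). At E14.5 against E12.5, 1 was higher and 3 lower, against 14.1% of genes (2.64% higher, and 1681 of the 14620 lower). Of the 8, 31 and 19 members past 2-fold in skin E over the same intervals, 0, 1 and 2 were past 2-fold in the same direction in skin ES, and 0 in the opposite direction. Over all genes, 17 of 1274, 127 of 3263 and 141 of 3193 past 2-fold in skin E were so in the same direction in skin ES, which is 1.33%, 3.89% and 4.42%, so such overlap was low among genes at large too. As a share of skin ES, the 1 of 1 and 2 of 4 members of the later 2 intervals stand beside 7.06% and 6.82% of all genes. The difference between the titles' changes was not tested. Sema6a, a transmembrane semaphorin gene that acts on A-type plexins, moved most, at 173, 111, 241 and 54.8 CPM in skin ES beside 63.4, 75.5, 238 and 92 CPM in skin E. Its ratio in skin ES was 2.18 at E12.5 against E10.5 (interval 2.03 to 2.33) and 0.227 at E14.5 against E12.5 (interval 0.209 to 0.247). The E12.5 library was the highest of its series under either title. The other 3 members past 2-fold in skin ES at E14.5 against E12.5 were Sema3e (ratio 2.4, interval 1.73 to 3.4), Ephb1 (0.387, 0.229 to 0.651) and Efna3 (0.429, 0.276 to 0.665). Ephb1 and Efna3 rest on 30 and 44 counts at E14.5 and on 34 and 45 counts at E12.5.

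In the AGM, 4 of 59 members changed at E10.5 against E9.5 in the edgeR fit of the 6 AGM libraries, 1 higher and 3 lower, against 2.59% of 17613 genes (0.874% higher and 1.72% lower). In a fit of all 14 libraries, with ES and E skin of a day as duplicates, edgeR called 0 members in this and the other 3 comparisons that use AGM libraries (0 of 20429 genes, with 27 to 950 at an unadjusted p under 0.05). The E9.5 libraries are of another dissection, the caudal part of the embryo. Slit1 rose, at 32.7 and 40.8 CPM at E10.5 against 11.6 and 13 CPM at E9.5 (log2 change 1.63, SE 0.14, adjusted p = 0.00785). Unc5c fell, at 78 and 74.6 CPM at E10.5 against 161 and 130 CPM at E9.5 (log2 change -0.88, SE 0.12, adjusted p = 0.0188). Neither gene's libraries overlapped between the days. In the same fit 4 of 6 neural tube progenitor markers were higher, at a sum of 194 and 172 CPM at E10.5 against 134 and 125 CPM at E9.5, and 4 of 6 macrophage markers lower, at 39.7 and 36.1 CPM against 96.8 and 86.1 CPM. Their part in the members' changes was not tested.

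Epha7, an ephrin-A receptor gene, fell to 68.6 and 73.5 CPM at E10.5, against 125 and 103 CPM at E9.5 (log2 change -0.63, SE 0.12, adjusted p = 0.0387). Plxnc1, the plexin gene for semaphorin 7A, fell to 7.51 and 5.58 CPM, against 16.4 and 11.8 CPM (log2 change -1.06, SE 0.21, adjusted p = 0.0422). With the round as a block, the fit that pairs the libraries, 25 members were called, 6 higher and 19 lower. In that fit 4237 of 17613 genes were called, 2131 higher and 2106 lower. The 4 members called without the block kept their calls. With median-of-ratios scaling the 4 called members were 2 higher and 2 lower, and Plxnc1 was not called (adjusted p = 0.05). The count rested on single libraries: 1 member was called without the first-round E9.5 library, 1 without the first-round E10.5 library, 7 without the second-round E9.5 library and 0 without the second-round E10.5 library (1 gene of 18382 called, 2105 at an unadjusted p under 0.05). Slit1 lost its call only without the second-round E10.5 library (adjusted p = 0.0623), while Epha7 and Unc5c lost theirs without either E10.5 library or the first-round E9.5 library (0.0542 to 0.268). Plxnc1 lost its call without any of these 3 and without either E11.5 library (0.0513 to 0.269).

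At E11.5 against E10.5 the AGM changed in 31 of 59 members, 10 higher and 21 lower, against 27.2% of genes (11.8% higher and 15.4% lower). The members' median log2 change was -0.25, beside 0 over all genes. The members that fell include 3 of 4 Robo genes (Robo1, Robo2, Robo4), 2 of 3 Slit genes (Slit2, Slit3) and 2 of 5 EphB receptor genes (Ephb4, Ephb6). The 7 EphA receptor genes split, with Epha1, Epha2 and Epha5 higher and Epha3, Epha4 and Epha7 lower. Leaving out 1 library put the members' median log2 change between -0.409 and -0.182, beside -0.0223 to 0.0066 over all genes. Fewer members were called in each of these fits.

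Epha3 fell most, to 5.16 and 5.06 CPM at E11.5 against 39.1 and 64.4 CPM at E10.5 (log2 change -3.25, SE 0.24, adjusted p = 9e-05). Sema3e rose most, at 21.1 and 18.2 CPM at E11.5 against 3.06 and 2.48 CPM at E10.5 (log2 change 2.92, SE 0.23, adjusted p = 0.000122). At E9.5 Epha3 lay at 48.3 and 53.7 CPM and Sema3e at 5.08 and 3.37 CPM, so that for both genes the E11.5 libraries stood apart from all earlier ones. Sema3d, another secreted semaphorin gene, fell to 11.8 and 16.9 CPM at E11.5 against 46 and 53 CPM at E10.5 (log2 change -1.71, SE 0.21, adjusted p = 0.000901).

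The Slit ligands moved apart, and the receptor genes Robo1 and Unc5c fell with Slit2. Slit2 fell to 57.5 and 67 CPM at E11.5 against 125 and 147 CPM at E10.5 (log2 change -1.04, SE 0.12, adjusted p = 0.000593), while Slit1 rose to 49.6 and 46.2 CPM against 32.7 and 40.8 CPM (log2 change 0.47, SE 0.13, adjusted p = 0.0327). The receptor gene Robo1 fell to 93.2 and 91.6 CPM against 164 and 170 CPM (log2 change -0.76, SE 0.09, adjusted p = 0.000952). Of the netrin receptors, Unc5c fell to 33.6 and 32.7 CPM against 78 and 74.6 CPM (log2 change -1.11, SE 0.12, adjusted p = 0.000533), and it had already been lower at E10.5 than at E9.5. Dcc was at 6.16 and 5.76 CPM against 3.22 and 4.22 CPM (log2 change 0.77, SE 0.23, adjusted p = 0.0388). Its call was lost without any 1 of the 4 libraries compared, at adjusted p = 0.0676 to 0.199.

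Of the transmembrane semaphorins, Sema5b rose to 37.4 and 34.3 CPM at E11.5 against 11.7 and 11.9 CPM at E10.5 (log2 change 1.69, SE 0.18, adjusted p = 0.000501). Sema5a, its close relative, fell to 44.2 and 42 CPM against 127 and 123 CPM (log2 change -1.44, SE 0.11, adjusted p = 9.6e-05). The 2 class 5 genes thus moved apart, with no overlap between days in either. Sema6b fell to 5.36 and 4 CPM against 10.4 and 9.53 CPM (log2 change -1, SE 0.2, adjusted p = 0.00908). The plexin gene Plxnc1 rose to 16.4 and 15.7 CPM against 7.51 and 5.58 CPM, back to its E9.5 range (log2 change 1.39, SE 0.21, adjusted p = 0.00235).

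Among Eph receptors, Epha5 rose to 8.22 and 5.02 CPM at E11.5 against 2.28 and 2.52 CPM at E10.5 (log2 change 1.56, SE 0.27, adjusted p = 0.00468). Epha1 rose to 14.6 and 11.6 CPM against 5.71 and 6.16 CPM (log2 change 1.24, SE 0.17, adjusted p = 0.00172). The rise of Epha1 stood beside a summed epidermal marker level of 244 and 261 CPM at E11.5 against 74.1 and 90.9 CPM at E10.5. Most of that sum was Krt8 (112 and 108 CPM at E11.5) and Krt18 (92.6 and 99.3 CPM). Krt5 lay at 2.94 and 5.95 CPM at E11.5 and Krt14 at 0.564 and 0.976 CPM. In the fit 5 of the 7 were higher. Neural tube progenitor markers summed to 500 and 449 CPM against 194 and 172 CPM, and neuronal markers to 106 and 134 CPM against 421 and 446 CPM. Muscle markers summed to 91.6 and 63.6 CPM against 338 and 396 CPM, and mesonephros markers to 45.3 and 41.8 CPM against 160 and 143 CPM, with the mesonephros gene Wt1 at 8.86 and 8.87 CPM against 86.4 and 78 CPM. Macrophage markers summed to 6.49 and 8.08 CPM against 39.7 and 36.1 CPM, neural crest and glial markers to 105 and 112 CPM against 254 and 239 CPM, and dermal mesenchyme markers to 771 and 744 CPM against 1145 and 993 CPM. The part of these cells in the members' changes was not tested.

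**Figure D4:**
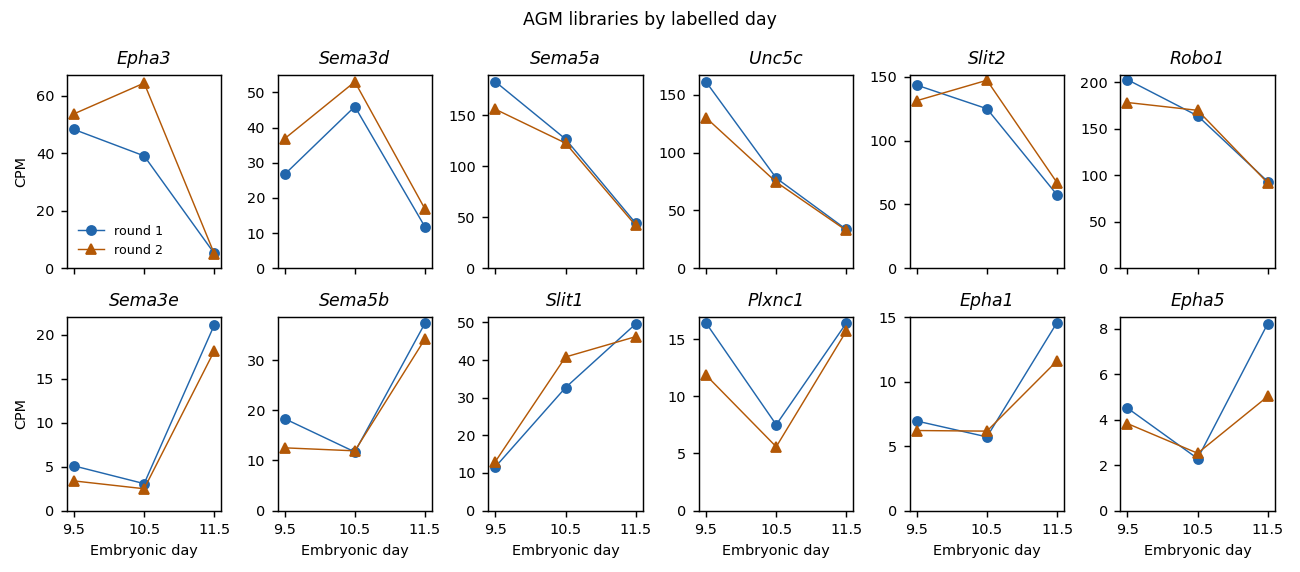
CPM of 12 members by labelled day in the AGM, with the first round as circles and the second as triangles. The 2 rounds move in the same direction at E11.5 against E10.5 for each gene: Epha3 and Sema3d drop at E11.5, Unc5c and Sema5a are lower on each later day, and Sema3e, Sema5b, Epha1 and Epha5 are highest at E11.5.

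AGM and skin titled E can be set side by side at E9.5 and E10.5 in a fit of 10 libraries, in which each skin library is assumed to vary like the AGM pairs. Tissue and sequencing project cannot be told apart here. At E9.5, 28 of 59 members were called, 19 higher and 9 lower in the AGM libraries, against 33.9% of 19945 genes (18% higher and 15.9% lower). Without the first-round E9.5 library the members' median log2 change was 0.132, beside 0.0294 over all genes, where every library gave 0.284 and 0.0413. Without it, more members were called lower than higher. At E10.5 members were called both higher and lower. The 59 members' median log2 change was -0.114, beside 0.0137 over all genes. Robo3 reached the filter's limit in skin E but in neither AGM library. Among the 58 members that reached it in every library of both groups, the median log2 change was -0.09, beside -0.008 over such genes. With the round also blocked, the 59 members' median was -0.113. Of 18 members called on both days, 8 were higher on both, 8 lower on both and 2, Slit2 and Epha3, changed sides. How many of all genes were called on both days was not computed, so this count is not a feature of the members. The change from E9.5 to E10.5 differed between the AGM and skin E in 12 of 59 members (2 higher and 10 lower in the AGM relative to skin) by an interaction term in the same fit, added after the data were seen, against 7.67% of genes.

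The 8 members lower in AGM libraries on both days are Dcc, Sema5b, Slit1, Epha8, Ntn1, Efna5, Efnb3 and Plxna2. Dcc lay at 4.23 and 3.04 CPM in the AGM libraries at E9.5, against 18.4 CPM in skin E (log2 change -2.38, SE 0.22, adjusted p = 0.000168), and at E10.5 at 3.22 and 4.22 CPM against 89.8 CPM (log2 change -4.58, SE 0.21, adjusted p = 5e-06). Slit1 lay at 11.6 and 13 CPM against 77.2 CPM at E9.5 (log2 change -2.7, SE 0.16, adjusted p = 1.8e-05), and at E10.5 at 32.7 and 40.8 CPM against 88.4 CPM (log2 change -1.26, SE 0.15, adjusted p = 0.000613). Ntn1, the netrin that the floor plate secretes, lay at 101 and 134 CPM against 247 CPM at E9.5 (log2 change -1.13, SE 0.16, adjusted p = 0.00148). At E10.5 it lay at 181 and 182 CPM against 267 CPM (log2 change -0.55, SE 0.16, adjusted p = 0.044).

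Robo3 lay at 0.286 and 0.387 CPM in the AGM at E10.5, against 78.4 CPM in skin E. The AGM values are 7 and 10 counts, under the filter's limit of 0.414 CPM, which Robo3 reached in skin E that day. Its fold in the fit is therefore not given, and its place in the interaction count rests on the same low counts. At E9.5 it lay at 2.1 and 0.247 CPM against 1.76 CPM and did not pass, with the AGM libraries on either side of the skin library. Sema5b lay at 11.7 and 11.9 CPM against 111 CPM at E10.5 (log2 change -3.21, SE 0.2, adjusted p = 1.8e-05). Epha5 lay at 2.28 and 2.52 CPM against 12.9 CPM (log2 change -2.41, SE 0.29, adjusted p = 0.000623), and Ntn4 at 4.49 and 5.07 CPM against 21.7 CPM (log2 change -2.17, SE 0.2, adjusted p = 0.000152). All 7 neuronal and all 6 neural tube progenitor markers were lower in the AGM at E10.5, and all 6 neural tube progenitor markers at E9.5 as well, and their part in these differences was not tested. Neuronal markers summed to 421 and 446 CPM in the AGM at E10.5 and to 2261 CPM in skin E.

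The 8 members higher in AGM libraries on both days are Unc5b, Sema5a, Nrp1, Sema3c, Ephb4, Sema3f, Robo2 and Sema3b. Unc5b lay at 127 and 84.5 CPM at E9.5 against 46.2 CPM in skin E (log2 change 1.14, SE 0.31, adjusted p = 0.023), a call lost without the first-round E9.5 library (adjusted p = 0.0735), and at E10.5 at 79.8 and 63.2 CPM against 26.5 CPM (log2 change 1.45, SE 0.32, adjusted p = 0.0128). Robo2 lay at 121 and 107 CPM against 51.7 CPM at E9.5 (log2 change 1.09, SE 0.13, adjusted p = 0.000569), and at E10.5 at 83.3 and 79.1 CPM against 33.7 CPM (log2 change 1.28, SE 0.13, adjusted p = 0.000251). Sema3f, a repulsive ligand of neuropilin-2, lay at 107 and 83.9 CPM against 38.7 CPM at E10.5 (log2 change 1.32, SE 0.22, adjusted p = 0.00371). The venous receptor gene Ephb4 lay at 259 and 216 CPM against 155 CPM at E9.5 (log2 change 0.56, SE 0.18, adjusted p = 0.0389). None of the 7 endothelial markers passed on either day in this test, at a summed level of 439 and 354 CPM in the AGM libraries against 386 CPM in skin E at E9.5. Other lists were higher in the AGM libraries. Of the macrophage markers 6 of 6 were at E9.5, at a sum of 96.8 and 86.1 CPM against 6.22 CPM in skin E, and 3 of 6 at E10.5, at 39.7 and 36.1 CPM against 17.7 CPM. Of the dermal mesenchyme markers 5 of 7 were higher and 1 lower at E9.5, at 1718 and 1256 CPM against 683 CPM, and 4 higher at E10.5, at 1145 and 993 CPM against 463 CPM. Of the mesonephros markers 4 of 5 were higher at E9.5, at 180.5 and 159 CPM against 30.8 CPM, and 3 higher and 1 lower at E10.5, at 160.4 and 143 CPM against 80.8 CPM. Their part in the members' differences was not tested.

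At E9.5 alone, Efna3 lay at 9.85 and 9.78 CPM in the AGM libraries against 2.21 CPM in skin E (log2 change 2.1, SE 0.22, adjusted p = 0.00033). Unc5c lay at 161 and 130 CPM against 46.8 CPM (log2 change 1.59, SE 0.16, adjusted p = 0.000255), and Slit3 at 123 and 92.2 CPM against 47 CPM (log2 change 1.15, SE 0.21, adjusted p = 0.00397). Epha3 changed sides: at E9.5 it lay at 48.3 and 53.7 CPM against 17.2 CPM (log2 change 1.52, SE 0.27, adjusted p = 0.00371), and at E10.5 at 39.1 and 64.4 CPM against 111 CPM (log2 change -1.09, SE 0.23, adjusted p = 0.0108). A pair of calls did not hold in every fit. Sema4a at E9.5, at 6.06 and 4.32 CPM against 2.36 CPM (log2 change 1.09, SE 0.3, adjusted p = 0.0242), was lost without the first-round library (0.0839) and in DESeq2 (0.0559). Epha1 at E10.5, at 5.71 and 6.16 CPM against 3.26 CPM (log2 change 0.88, SE 0.22, adjusted p = 0.0228), was lost without either AGM library of that day (0.0538 and 0.0762).

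**Figure D5:**
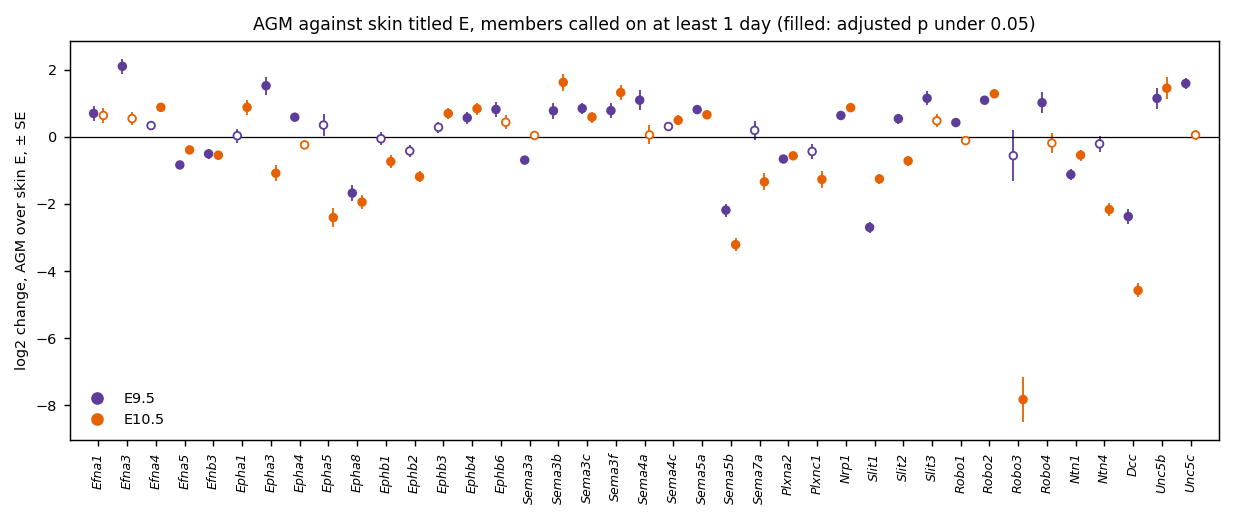
Log2 change with its standard error, AGM over skin titled E, at E9.5 (purple) and E10.5 (orange) for the 39 members called on at least 1 day; filled points passed an adjusted p of 0.05. Dcc, Sema5b, Slit1 and Epha8 lie below 0 on both days, and Epha3 is above 0 at E9.5 and below 0 at E10.5. Robo3, lowest at E10.5, was under the filter's limit in both AGM libraries of that day.

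Guidance genes outside the 59, 49 further ligands, receptors and effectors such as the collapsin response mediators and slit-robo GTPase activators, of which 48 are in the table, were counted in the same fits. In skin ES against skin E, 5 were higher and 23 lower of 44 tested, beside the 58.8% of all genes called, and 5 and 19 of the 40 that reached the filter's limit in every library of both titles, beside 53.2% of such genes. In the AGM, 3 rose and 0 fell of 48 at E10.5 against E9.5, where 2.59% of all genes were called, and 7 rose and 17 fell at E11.5 against E10.5, where 27.2% were. In the AGM against skin E, 8 were higher and 14 lower of 48 at E9.5 (33.9% of all genes called), and 6 higher and 22 lower at E10.5 (24% of all genes called). In skin E over the 3 intervals, 12, 9 and 4 of 47 were past 2-fold higher and 1, 12 and 14 past 2-fold lower, where 8.51%, 21.8% and 21.3% of all genes were past it. In skin ES 1, 1 and 0 of 39 were higher and 0, 2 and 0 lower, beside 4.49%, 12.3% and 14.1% of all genes.

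Levels between genes can be compared per kilobase of exon. In skin E Plxnb2, a plexin B gene, lay at 43.3, 42.4, 70 and 91.2 CPM per kb in order of day, Ntn1 at 39.4, 42.6, 23 and 33.3 CPM per kb and Ephb4 at 33.4, 25.1, 70.9 and 44.1 CPM per kb. Plxnb2 was thus the highest of the 3 at E9.5 and E14.5, and 1 of the others was level with it at E10.5 and E12.5. In the AGM Plxnb2 lay at 34.2 to 64 CPM per kb and Ephb4 at 25.8 to 55.8 CPM per kb. In skin ES Sema7a, at 128 to 165 CPM per kb, and Slit3, at 69.7 to 94 CPM per kb, led. Unc5b lay at 44.7 to 52.4 CPM per kb there. Slit3 in skin E lay at 7.74 to 27 CPM per kb, and Robo1, its most abundant receptor gene in skin E at E12.5, at 24.4 CPM per kb that day.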

How the data were processed

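The deposited table holds raw read counts per gene in 14 libraries, made by the authors. Per the submitters' processing notes, the tools listed, with no role or order, include featureCounts (1.6.0), STAR (2.5.0a), Trimmomatic (0.36) and DESeq2 (1.20.0), and the build is GRCm38/mm10. Strand settings are not given. Columns were matched to samples by name. Members were chosen by symbol, and the members, marker lists and named genes (up to 6 in each direction among called members, with at least 3 CPM in the higher group) were chosen with earlier results of these data known.

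CPM was computed from total counts. Tests on counts used R 4.3.3 with edgeR 4.0.16 (filterByExpr, TMM, glmQLFit, glmQLFTest), adjusted by Benjamini-Hochberg over all tested genes, and called under 0.05. The fits were the 6 AGM libraries (17613 genes), AGM with skin E (10 libraries, 19945 genes) and the 8 skin libraries with day as a block (16588 genes), each with 3 residual degrees of freedom and common coefficients of variation of 12.1%, 12.1% and 40.3%. Single skin libraries were compared by fold only, with a pseudocount of 0.5 CPM, over genes with a mean of at least 1 CPM. The AGM round numbers come from the labelled sequencing projects, and round differences of different days correlated at 0.408, 0.289 and 0.332 across 17613 genes, so the rounds were taken to pair libraries in the blocked fit. Alternatives were DESeq2 1.42.0, median-of-ratios scaling, no filter, the round block, leaving out each library, and all 14 libraries in 7 groups. Scripts were tested on simulated data. Counting intervals and depth cover counting error only. Coordinates of 53 members equal those in GENCODE M21. Promoter sequences are from RefSeq. The summed red cell marker list is not reported here.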

Additional observations from a re-analysis of the deposited data

Results flagged for a closer look

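The change of 12 of 59 members from E9.5 to E10.5 differed between AGM and skin titled E, by an interaction term in the edgeR quasi-likelihood fit of 10 libraries with Benjamini-Hochberg adjustment, against 7.67% of 19945 genes. The test was added after the data were seen, the skin change is 1 library a day, and tissue and sequencing project cannot be told apart. The libraries titled AGM at E9.5 hold the caudal part of the embryo with PsP, so the AGM change is also one of dissection. Values are the AGM change minus the skin change on the log2 scale, and a negative one means that the gene was relatively higher in skin E at E10.5.

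Robo3, counted among the members that differed, was at -7.26, with an AGM change of -1.79 and a skin change of 5.48. Its size cannot be relied on, because the AGM counts were low. They were 7 and 10 at E10.5, under the filter's limit of 0.414 CPM, and 62 and 6 at E9.5. In the edgeR fit of the 6 AGM libraries the change of Robo3 was not called (adjusted p = 0.296). The 4 receptor genes Epha5 (-2.75), Epha3 (-2.61), Dcc (-2.20) and Unc5c (-1.53) and the ligand genes Ntn4 (-1.96), Efna3 (-1.56), Sema7a (-1.53) and Slit2 (-1.26) were also negative, at adjusted p between 0.00556 and 0.0491. Epha4 was at -0.83. Unc5c changed by -0.87 in the AGM and by 0.67 in skin E. A pair of ligand genes was positive, Slit1 at 1.44, with an AGM change of 1.64 and a skin change of 0.2, and Sema3a at 0.73, with changes of 0.05 and -0.69. Neuronal markers summed to 421 and 446 CPM at E10.5 against 407 and 342 CPM at E9.5 in the AGM, and to 2261 CPM against 349 CPM in skin E, and their part in these differences was not tested.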

How the results depend on the processing

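Counts of members called were recomputed under 83 alternatives, of which 62 stayed within 1.5 times the reported count. AGM E10.5 against E9.5 (4 members) gave 15 with no filter, 10 with DESeq2, 25 with the round as replicate block, and 0 to 7 leaving out 1 library. With no filter 1769 of 32435 genes were called there, with DESeq2 931 of 15564 and with the block 4237 of 17613. The block gave 41 for AGM E11.5 against E10.5 (31), with 8491 of 17613 genes. In AGM against skin E the members' median log2 change was 0.28 at E9.5 and -0.11 at E10.5, with or without the block. No named gene lost its call under the block. A fit of all 14 libraries, with ES and E skin of a day as duplicates, called 0 members and 0 of 20429 genes by edgeR in the 4 comparisons, with 27, 485, 950 and 847 genes at an unadjusted p under 0.05 for AGM E10.5 against E9.5, AGM E11.5 against E10.5, and AGM against skin E at E9.5 and E10.5. In that fit 36 of 40 named results lost their call and 4 changed direction: Unc5b at E9.5 (-0.88) and E10.5 (-1.44), Slit3 at E9.5 (-1.40) and Epha1 at E10.5 (-0.39), all AGM against skin E; its construction averages ES and E. A 4-fold limit left 4, 7 and 5 members in the 3 skin E intervals and 0, 0 and 1 in skin ES, where TMM scaling gave 2, a 0.1 CPM pseudocount 4 and no filter 3 at E12.5 against E10.5; the 10-library fit called 35 in skin E at E14.5 against E12.5. That fit has 1 skin E library a day, so its count of 35 is not read as a feature of the members. It called members both higher and lower. Their median log2 change in it was -0.119, beside 0.0194 over all genes. Leaving out 1 library put the members' median log2 change at -0.409 to -0.182 for AGM E11.5 (all genes, -0.0223 to 0.0066). For AGM against skin E at E9.5 it was 0.132 to 0.369 (all genes, 0.0261 to 0.0682). For AGM against skin E at E10.5 it was -0.18 to -0.0375 (all genes, 0 to 0.0155). For skin ES against skin E, 36 to 45 members were called, beside 7653 to 10546 of the 16709 to 17627 genes tested. Of 739 alternatives for 84 named results, 655 kept direction and call. Causes were not tested. Depth limits skin ES most, with totals from 6770338.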
